A study of Oryzias latipes with 27 samples.

Results

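The genes described here encode the proteins of the mitochondrial ribosome of medaka (Oryzias latipes), a small freshwater fish with XX females and XY males. They were taken as every gene symbol that starts with mrpl or mrps followed by a digit, which gave 75 of the 26099 genes in the count table. Symbols of this form were assigned to the large subunit (mrpl genes, mrps30 and mrps18a, 49 genes) or the small subunit (25 mrps genes), after the positions of the proteins in mammals. The remaining gene, mrps36, was kept apart, since its mammalian protein has been reassigned to the 2-oxoglutarate dehydrogenase complex. The series holds 27 poly(A) RNA-seq libraries of gonads, 3 in each of 9 groups, sampled 10 (D10), 30 (D30) or 120 (D120) days after hatching. WT_Fe_Ov is the ovary of wild type XX females, WT_Ma_Te is the testis of wild type XY males, and MT_Fe_Ov is the ovary of XY fish in which DMY, the male-determining gene of the Y chromosome, was knocked out with TALENs. MT_Fe_Ov and WT_Fe_Ov together are called Fe_Ov (6 libraries per stage), and Ma_Te denotes the 3 testes. The paper states that the mutation was inherited stably over generations. How many founders the mutant line goes back to, how many fish entered a library and the strain are not given in the sources used here. At D10 the gonad was taken with the tissue beside it, without head and tail, so D10 levels are those of a mixture. The targeted gene was not analysed here.

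Mitochondria carry their own ribosomes, which translate the few proteins encoded by mitochondrial DNA, all of them subunits of the respiratory chain and the ATP synthase. The ribosomal RNAs come from mitochondrial DNA, while every ribosomal protein is encoded in the nucleus, made on cytosolic ribosomes and imported. Some of these proteins have bacterial homologues and others exist only in mitochondria. Oocytes are known for accumulating large numbers of mitochondria, and sperm keep only a few around the flagellum.

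Between 5551651 and 17586392 read pairs were counted in a library (median 12200597). All 75 genes were detected in every library, the lowest count being 37, and all passed into every test. Levels are given below as FPKM (fragments per kilobase of exon, relative to the fragments counted in the library) divided by the library's TMM factor, called scaled FPKM. TMM is edgeR's correction for differences in the make-up of libraries, and its factors ran from 0.740 to 1.497. The highest factors belonged to the D30 testes and the lowest to the D30 ovaries, so the scaling weighs most on the comparison of these groups. The D30 testes were also sequenced with shorter reads than the D30 ovaries, so that at D30 the tissue and the length of the reads cannot be told apart. Their reads were shorter than those of the D10 and D120 testes as well. In both testis steps the stage and the length of the reads therefore cannot be told apart either. The labelled tissues were checked by marker lists. The summed scaled FPKM of 5 oocyte markers was 1661 to 2418 in the ovaries of D30 and D120 and at most 43.9 in the testes. Of the somatic ovary list, foxl2 was at 3.075 to 12.02 in D30 ovaries and 0.391 to 0.736 in D30 testes, while fshr was higher in the D30 testes (53.2 to 57.8) than in the D30 ovaries (0.677 to 2.45). The testis somatic list (gsdf, amh and star) summed to 1439 to 1599 in D30 testes and 60.2 to 203 in D30 ovaries. Most of the D30 testis sum was gsdf, at 1341 to 1509. At D120 the list summed to 372 to 435 in testes and 54.1 to 70.8 in ovaries. Of its genes, star alone went the other way at D120, at 3.59 to 5.01 in testes and 8.64 to 15.2 in ovaries. The 4 male meiotic and spermatid markers summed to 40.1 to 48.05 in D30 testes and 279 to 324 in D120 testes, against at most 2.44 in the ovaries of these stages. At D10 the oocyte list stayed at or below 10.9 in every library, while markers of pancreas (cpb1, 23.9 to 1581), liver (48.0 to 707) and kidney (19.4 to 224) were high. The oocyte list was at 1.995 to 10.9 in D10 ovaries and 0.651 to 1.24 in D10 testes. The sum of the testis somatic list did not separate the D10 tissues, at 12.4 to 37.3 in ovaries and 4.53 to 21.4 in testes. Its genes went different ways there. In D10 testes gsdf was at 9.09, 12.5 and 2.30, so that replicates 1 and 2 exceeded all D10 ovaries (1.32 to 3.66). In contrast, star was at 1.27 to 6.65 in D10 testes and 9.63 to 32.6 in D10 ovaries. The tissues overlapped in amh. In these bulk samples, fewer cells of a type and less RNA per cell cannot be told apart.

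The genes of the mitochondrial ribosome were expressed at higher levels in ovaries than in testes at D120 on both scales and at D30 after TMM scaling only, and their level in ovaries was higher at each later stage. The summed scaled FPKM of the 75 genes in Fe_Ov (mean ± SD, n = 6) was 2205 ± 124 for D10 libraries, 5045 ± 586 for D30 libraries and 7085 ± 519.6 for D120 libraries. In Ma_Te it was 1889 ± 496 (SD, n = 3), 2751 ± 199 and 3046 ± 56.3 in the same order. The libraries of both tissues overlapped at D10 (2017 to 2322 against 1410 to 2400) but were apart for D30 (4380 to 6107 against 2613 to 2979) and for D120 (6511 to 7937 against 2996 to 3107). The D30 gap depended on the scaling, since the FPKM values as deposited summed to 3242 to 4824 in D30 ovaries and 3908 to 4429 in D30 testes, which overlap. The D120 gap was present on both scales, with deposited sums of 6049 to 6990 in ovaries and 3261 to 3508 in testes. Of the 75 genes, 62 had their highest mean scaled level in the D120 ovary among the 6 combinations of stage and tissue, and 50 did so in deposited FPKM. The D10 testis held the lowest mean scaled level of 44 members, and mrpl2, mrpl52 and mrps34 alone were highest in the D120 testis on the scaled values. How all genes spread over these 6 combinations was not counted.

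**Figure D1:**
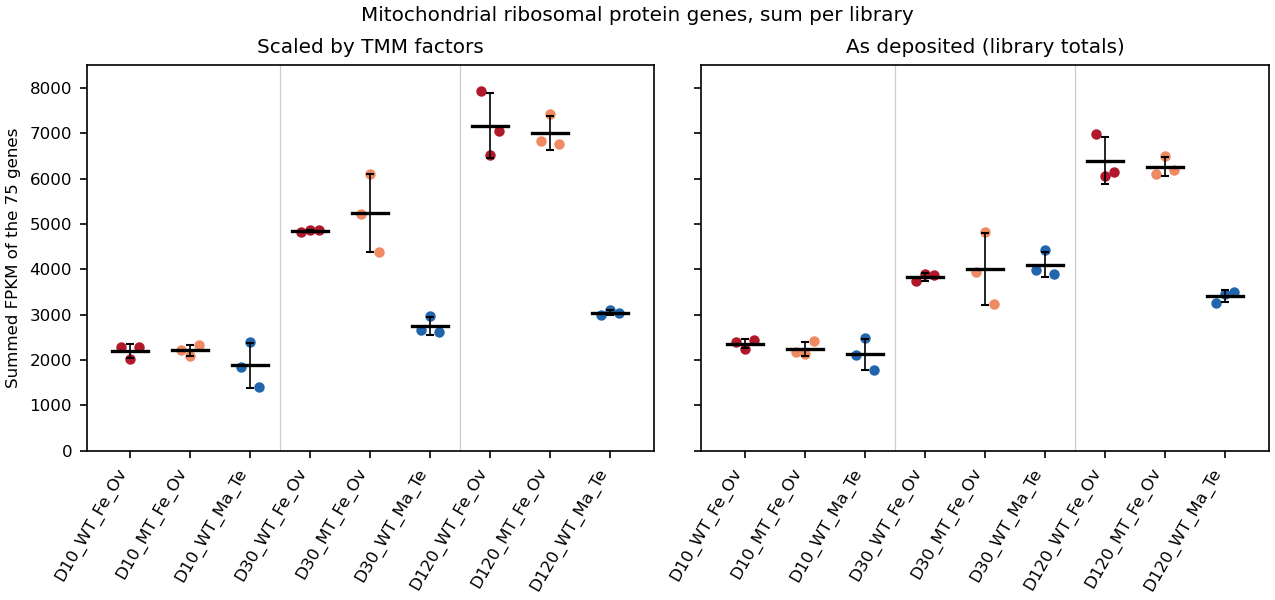
Summed FPKM of the 75 mitochondrial ribosomal protein genes in each library (y axis), after division by TMM factors (left) and as deposited (right), by group (x axis). Points are libraries, bars the mean and SD of 3 libraries. Ovaries and testes separate at D120 on both scales, with 6511 to 7937 against 2996 to 3107 on the left, and at D30 on the left only.

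Levels differed widely between the members. The mean deposited FPKM over all libraries ran from 15.2 to 117, with a median of 48.2. The highest means were those of mrpl20 (117), mrpl22 (97.00) and mrpl27 (92.2), whose proteins have bacterial homologues in the large subunit, and of mrps12 (91.4), the protein that lines the decoding site of the small subunit. The lowest were those of mrpl58 (15.2), a peptidyl-tRNA hydrolase that rescues stalled ribosomes and is also built into the large subunit, and of mrps25 (21.3), mrps30 (22.9) and mrps31 (24.3). Between replicates, the median coefficient of variation over the members was 5.57% in D30 WT_Fe_Ov and 6.29% in D120 WT_Ma_Te, and 28.7% in D10 WT_Ma_Te. The 3 D10 testes also differed in the content of other tissue, with a summed liver level of 48.0 to 420 in scaled FPKM. The part of this tissue in the D10 values was not tested.

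The comparison of ovary and testis at D30 asks how these genes differ once the gonads have formed. A gene was called when edgeR's quasi-likelihood test gave an adjusted p of at most 0.05 and the absolute log2 fold change was at least 1. At D30, 34 of the 75 members (45.3%) were called higher in Fe_Ov than in Ma_Te and 0 were called lower, while 22% of all genes tested were called higher and 36.5% lower. With DESeq2 29 were higher and 1 lower, where 19.6% and 35.6% of all its genes were. In edgeR 6 members with a negative change had an unadjusted p under 0.05. The share of all genes with such a p was not counted. The median log2 fold change of the members was 0.91, and that of all genes was −0.53, a difference of 1.44. With library totals in place of TMM factors, 4 members were called higher and 12 lower and the median moved to −0.06, while that of all genes moved to −1.49, which left a difference of 1.43. On that scale 9.87% of all genes tested were called higher and 52.1% lower. Of all genes called, 37.6% were higher in the ovary with TMM factors and 15.9% with library totals. The median of the members thus lay above 0 with TMM factors and just below it with library totals, and on either scale the members lay above the bulk of the genes. In 52 members every ovary library exceeded every testis library and in 3 the reverse held, against 27.1% and 38.9% of all genes tested. With library totals these counts were 21 and 23, against 13.8% and 56.5% of all genes.

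The 4 members with the largest differences at D30 were called higher in Fe_Ov under both scalings. Mrpl44, a large subunit protein with an RNase III-like fold (chromosome 13, 22982859 to 22985877 in ASM223467v1), was measured at 149.8, 132 and 138.5 in WT_Fe_Ov, 194.5, 177 and 159.5 in MT_Fe_Ov and 27.2, 25.9 and 33.1 in WT_Ma_Te, in scaled FPKM. All ovaries lay several times above all testes, and the log2 fold change was 2.49 ± 0.17, adjusted p = 5e-08 (log2 fold changes are given with their SE). Mrpl19, which has a bacterial homologue (chromosome 24, 7055300 to 7058087), was at 108, 126 and 111 in WT_Fe_Ov, 82.9, 85.99 and 86.6 in MT_Fe_Ov and 19, 17.96 and 18.8 in WT_Ma_Te. Again no ovary came near a testis, with a log2 fold change of 2.46 ± 0.16, adjusted p = 4.2e-08. For mrpl27, a homologue of the bacterial protein beside the peptidyl transferase centre (chromosome 19, 24363507 to 24366794), the libraries gave 158, 143 and 153.5 in WT_Fe_Ov, 236, 304 and 235 in MT_Fe_Ov and 45.3, 52.9 and 48.7 in WT_Ma_Te. Both ovary groups exceeded the testes, the mutant ovaries by more, and the log2 fold change was 2.08 ± 0.25, adjusted p = 6.8e-06. Mrpl34, also with a bacterial homologue (chromosome 17, 14114936 to 14117753), was at 98.9, 117 and 112.5 in WT_Fe_Ov, 136, 176 and 124 in MT_Fe_Ov and 30.9, 34.6 and 31.45 in WT_Ma_Te, a log2 fold change of 2.00 ± 0.18, adjusted p = 6.1e-07. With library totals the log2 fold changes of mrpl44, mrpl19, mrpl27 and mrpl34 were 1.515, 1.49, 1.11 and 1.03.

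A few members ran the other way at D30 on the scaled values without reaching the fold minimum. Mrps11, a small subunit protein with a bacterial homologue that was singled out after its values were seen, was at 32.55, 32.9 and 34.25 in WT_Fe_Ov, 33.4, 40.2 and 27.01 in MT_Fe_Ov and 59.2, 74 and 55.75 in WT_Ma_Te. Every testis exceeded every ovary, and the log2 fold change was −0.89 ± 0.14, adjusted p = 0.00011. Mrps24, chosen in the same way, had ovaries at 29.9 to 58.7 and testes at 67.4, 77.3 and 69.1, with a log2 fold change of −0.74 ± 0.21, adjusted p = 0.00727. With library totals both were called lower in the ovary, at −1.86 and −1.71.

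**Figure D2:**
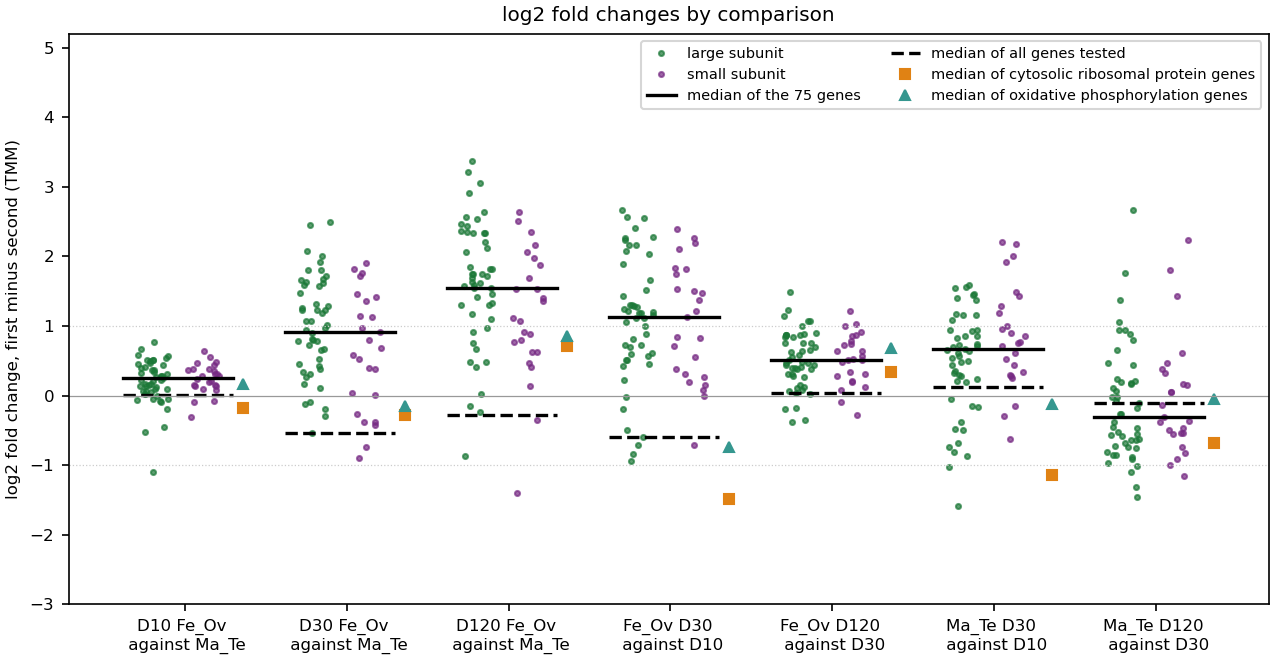
The log2 fold change (y axis, first group minus second, TMM scaling) of each member in 7 comparisons (x axis), by subunit. Solid bars are the medians of the 75 genes, dashed bars those of all genes tested, squares and triangles those of cytosolic ribosomal protein and oxidative phosphorylation genes; dotted lines mark 1 and −1. The median of the members was 0.91 at D30 and 1.55 at D120 for ovary against testis, and library totals move the D30 value to −0.06.

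At D120 the difference between the tissues was larger and held on either scale. Of the 75 members, 52 (69.3%) were called higher in Fe_Ov and 1 lower, where 23.8% of all genes were called higher and 32% lower. The median log2 fold change was 1.55 against −0.28 over all genes. With library totals, 46 were called higher and 2 lower, where 19.4% and 37.1% of all genes were, with a median of 1.23 against −0.57. In 68 members all 6 ovaries lay above all 3 testes and in 2 all lay below, against 29.6% and 36.4% of all genes tested.

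Mrpl34 had the largest D120 difference, with 173, 140.3 and 145 in WT_Fe_Ov, 142, 179.9 and 162 in MT_Fe_Ov and 16.9, 14.2 and 14.3 in WT_Ma_Te in scaled FPKM. The testes lay close together, far below all ovaries, and the log2 fold change was 3.37 ± 0.13, adjusted p = 2.7e-11. For mrpl49, a protein found only in mitochondrial ribosomes (chromosome 7, 4702212 to 4703216), the values were 164, 117 and 127 in WT_Fe_Ov, 108, 76.4 and 93.2 in MT_Fe_Ov and 12.6, 11.4 and 12.9 in WT_Ma_Te, giving 3.21 ± 0.22, adjusted p = 1.4e-08. Ovaries of both genotypes lay far above the testes, and the wild type ovaries above the mutant ones. Mrpl19 was at 80.5, 102.5 and 87.1 in WT_Fe_Ov, 87.9, 85.3 and 85.5 in MT_Fe_Ov and 11.25, 8.69 and 11.9 in WT_Ma_Te, with a log2 fold change of 3.05 ± 0.12, adjusted p = 5.9e-11. Mrpl41, another protein of mitochondrial ribosomes alone (chromosome 9, 28466182 to 28468656), was at 128, 100.4 and 113.5 in WT_Fe_Ov, 107, 115 and 103.5 in MT_Fe_Ov and 16.4, 12.8 and 15.1 in WT_Ma_Te, with 2.91 ± 0.11, adjusted p = 4.6e-11. In each of these genes no testis library overlapped with an ovary.

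Many other members were called higher in the ovary, here on TMM scaling. Of those called higher in Fe_Ov, 29 were called at both D30 and D120, 5 at D30 only (mrpl16, mrpl22, mrpl23, mrpl52 and mrps26) and 23 at D120 only. The matching shares over all genes were not counted. Whether the overlap of the D30 and D120 calls is unusual was therefore not tested. Among the large subunit genes called at both stages, mrpl21 was at 1.80 and 2.53 on the log2 scale and mrpl42 at 1.32 and 2.63. Among those of the small subunit, mrps7, with a bacterial homologue, was at 140.2 to 165.5 in scaled FPKM in D120 ovaries and 23.6, 24.1 and 23.4 in D120 testes (2.63 ± 0.08, adjusted p = 6.5e-12), and mrps28 at 34.3 to 43.7 and 6.73, 8.135 and 5.53 (2.51 ± 0.15, adjusted p = 4.2e-09). No testis came near an ovary in either gene. Of those called at D120 only, mrpl57 was at 106 to 148.5 and 21.7, 27.2 and 25.6 (2.33 ± 0.12, adjusted p = 9.1e-10) and mrps15, with a bacterial homologue, at 83.15 to 105 and 20.8, 20.3 and 21.8 (2.16 ± 0.10, adjusted p = 1.9e-10). The genes of this paragraph were chosen after their values were seen. Mrpl9, mrpl33, mrpl39, mrps16 and mrps25 were called in none of the comparisons on this scale, and the share of all genes without any call was not counted. Mrpl9, with a bacterial homologue, was among the few members with the highest mean in the D10 ovary, at 59.7 to 64.15 there, 22.9 to 42.3 in D30 ovaries and 32.8 to 52.7 in D120 ovaries.

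At D10, 0 of the 75 members were called in either direction with edgeR, against 0.254% of all genes tested. An unadjusted p under 0.05 was found for 12 members, and the share of all genes under that limit was not counted. The median log2 fold change was 0.25 for the members and 0.01 for all genes. Mrpl58 had the smallest p, with 3.1, 5.08 and 4.75 in WT_Fe_Ov, 4.29, 3.95 and 4.16 in MT_Fe_Ov and 4.32, 10.8 and 11.4 in WT_Ma_Te in scaled FPKM. Testis replicates 2 and 3 stood above all ovaries while replicate 1 lay among them, and the log2 fold change of −1.09 ± 0.32, adjusted p = 0.104 did not pass. DESeq2 called 1 member, mrpl58, lower in the ovary, and it called 6.9% of all its genes at D10, far more than edgeR. Without testis replicate 1, 2 members were called by edgeR, mrpl58 lower at −1.44 and mrpl13 higher at 1.39.

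Calls and medians by subunit are given as a description, without a test. At D30, 25 of 49 large subunit genes were called higher in Fe_Ov (median log2 fold change 1.01) and 9 of 25 small subunit genes (median 0.68), on TMM scaling. At D120 the counts were 38 of 49 (median 1.69) and 14 of 25 (median 1.12), with 1 small subunit gene lower. Of all genes tested, 22% were called higher and 36.5% lower at D30, and 23.8% and 32% at D120, on TMM scaling. With library totals, 4 of the 75 members were called higher at D30 and 46 at D120. The ratio of summed large to summed small subunit FPKM does not depend on the scaling of a library. It was 2.05 to 2.37 in the 6 ovaries of D30 and 2.03 to 2.17 in those of D120, but 1.53 to 1.65 in the D30 testes and 1.36 to 1.54 in the D120 testes. Ovary and testis ratios thus did not overlap at either stage, while at D10 they did, with 2.07 to 2.26 in ovaries and 2.07 to 2.38 in testes. A single gene, mrps34, carried a large share of the small subunit sum in the D120 testes. Without it, an alternative chosen after the data were seen, the D120 testes had ratios of 1.85 to 1.89 against 2.13 to 2.27 in the ovaries, and the D30 testes 1.62 to 1.75 against 2.17 to 2.49. The ratios were not tested.

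**Figure D3:**
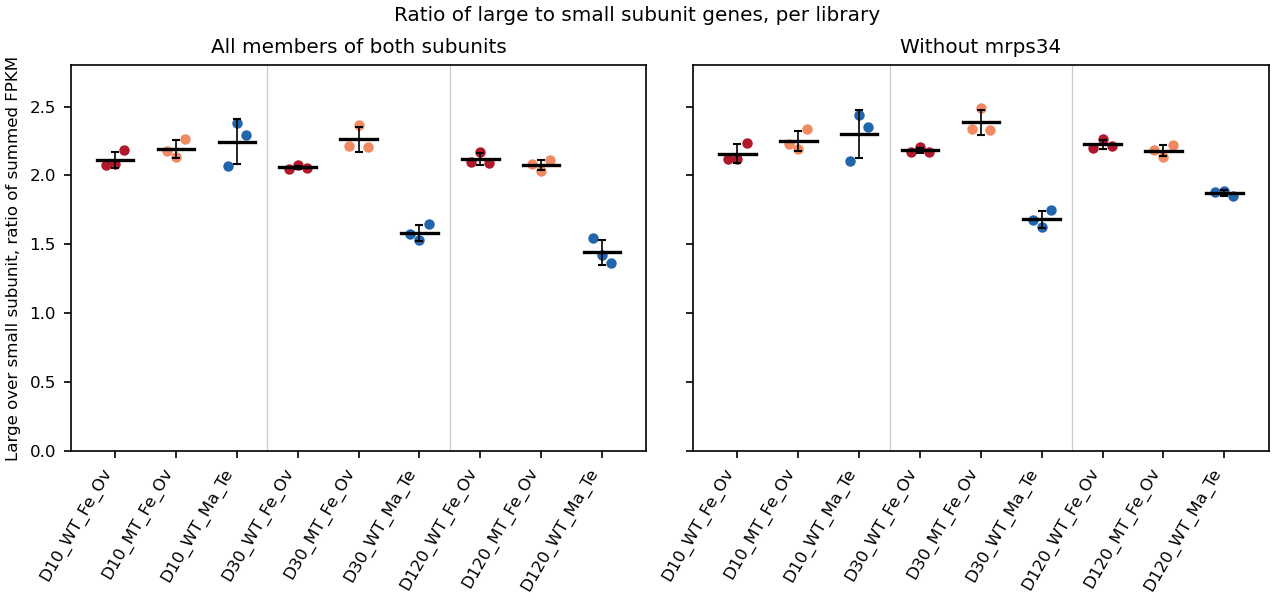
Ratio of the summed FPKM of 49 large subunit genes to that of 25 small subunit genes in each library (y axis), by group (x axis), with all genes (left) and without mrps34 (right). Points are libraries, bars the mean and SD of 3 libraries. The testes of D30 and D120 sit at 1.36 to 1.65 on the left, below every other library.

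The single member called lower in the ovary at D120 was mrps34, a small subunit protein found only in mitochondrial ribosomes (chromosome 8, 14625955 to 14628783, overlapping no other annotated gene). Its D120 levels were 113, 86.5 and 122 in WT_Fe_Ov, 104, 115 and 107 in MT_Fe_Ov and 209, 313.5 and 331 in WT_Ma_Te, in scaled FPKM. Testis replicates 2 and 3 stood above replicate 1, and all 3 stood above every ovary, with a log2 fold change of −1.40 ± 0.13, adjusted p = 4.7e-07. At D30 the order of the tissues was opposite, with ovaries at 73.95 to 92.5 and testes at 61.5, 65.1 and 55.6, a log2 fold change of 0.52 ± 0.11, adjusted p = 0.00106 that did not reach the fold minimum and that library totals turned to −0.44. Mrpl2 was the other member with all testes above all ovaries at D120, with ovaries at 44.1 to 60.2 and testes at 102.5, 93.5 and 93.4, and did not reach the fold minimum (−0.87 ± 0.10, adjusted p = 2e-06), while library totals gave −1.20 and a call. Of the summed FPKM of the 75 genes, mrps34 made up 6.97%, 10.1% and 10.9% in the D120 testes, 1.33% to 1.73% in the D120 ovaries and 2.13% to 2.31% in the D30 testes. Testis replicate 3 at D120 also carried the kidney gene slc12a3 at 63.4, against 0.38 and 0.64 in the other two. Without replicate 3, the log2 fold change of mrps34 was −1.27.

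Other members rose beside mrps34 in the testis between D30 and D120. In Ma_Te, 7 members (9.33%) were called higher at D120 than at D30 and 6 (8%) lower, where 17.8% of all genes were called higher and 21.3% lower. The median of the members was −0.30 and that of all genes −0.11. The D30 testes had shorter reads than the D120 testes, so stage and read length cannot be told apart in this step. Library totals gave 5 higher and 23 lower, with medians of −0.72 and −0.52, and 11.6% and 29.9% of all genes were called, so the lower share of the members was that of all genes. Mrpl52, a mitochondria-specific protein of the large subunit (chromosome 18, 17867697 to 17869944), went from 27.4, 27.8 and 36.4 to 182, 207 and 193 in scaled FPKM, the largest rise (2.67 ± 0.12, adjusted p = 1.6e-09). Mrps34 followed with 2.23 ± 0.15, adjusted p = 7.6e-08. Mrps26, of the small subunit (chromosome 22, 25607836 to 25610750), went from 12.7, 14.5 and 13.96 to 42.9, 50.8 and 50.25 (1.81 ± 0.11, adjusted p = 2.1e-08). Mrpl2, a homologue of a bacterial protein at the core of the large subunit (chromosome 15, 28957689 to 28960845), went from 28.9, 26.3 and 29.8 to 102.5, 93.5 and 93.4 (1.76 ± 0.09, adjusted p = 3.2e-09). No D30 library of these genes overlapped with a D120 library, and all 4 rises were called under library totals as well. Mrpl2 overlaps another annotated gene, LOC101172103, by 32 bp, whose mean rose in the same interval from 9.99 to 32.7 scaled FPKM. Counting did not use the strand, and its share in the mrpl2 count was not tested.

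**Figure D4:**
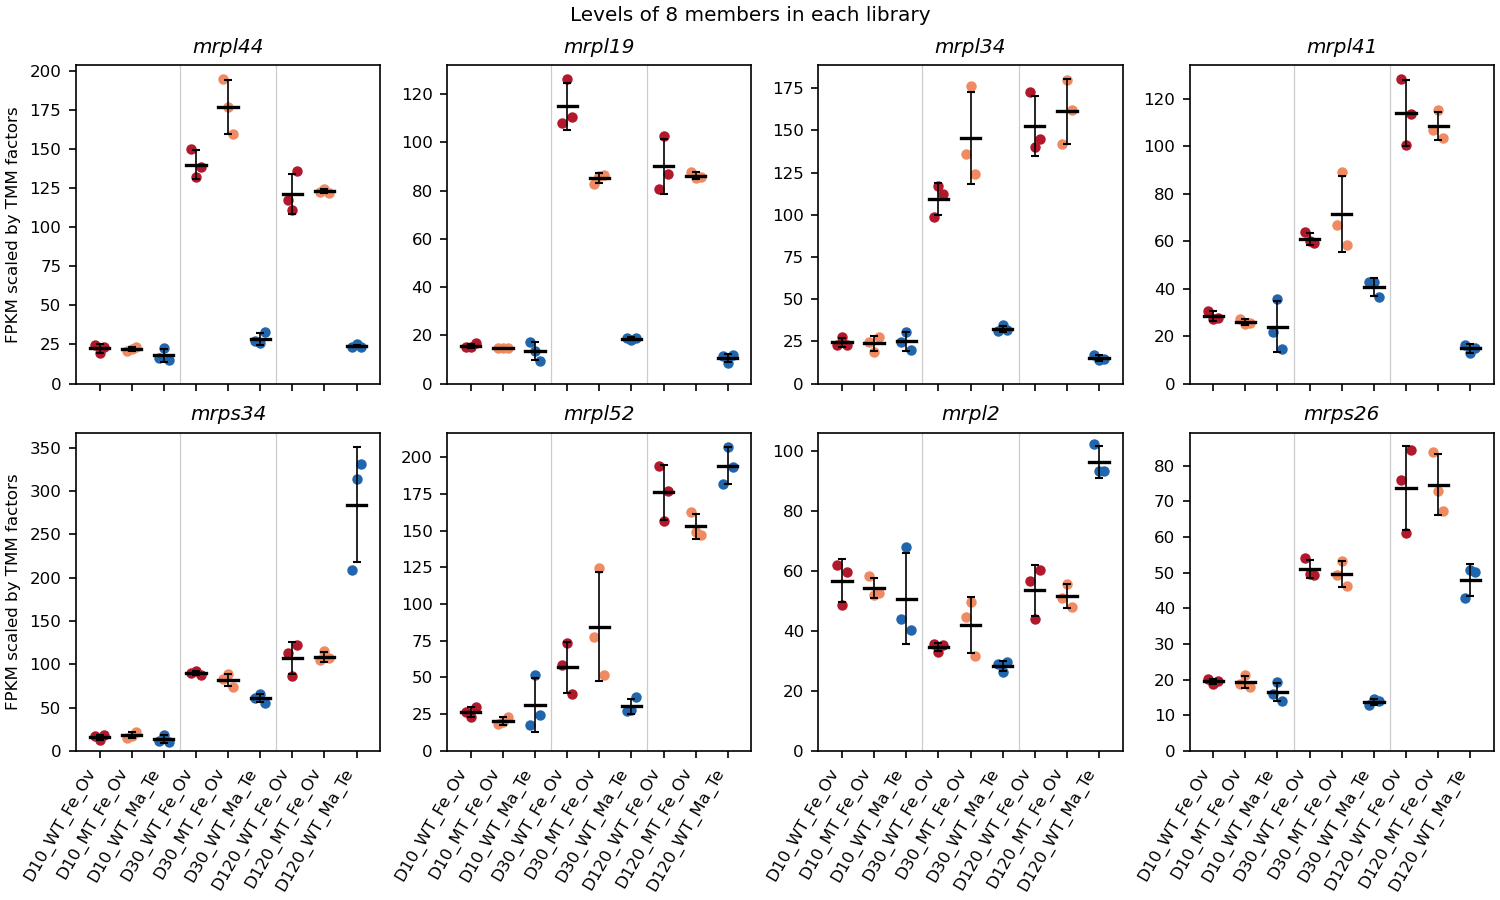
Scaled FPKM (y axis) of 8 members in each library, by group (x axis). Points are libraries, bars the mean and SD of 3 libraries. In the upper row the D120 testes lie far below the ovaries, as for mrpl34 with 14.2 to 16.9 against 140 to 180; in the lower row mrps34, mrpl52 and mrpl2 reach their highest levels in the D120 testis.

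In the same interval, other members fell in the testis. Mrpl41 went from 42.96, 42.96 and 36.4 in the D30 testes to 16.4, 12.8 and 15.1 in the D120 testes (−1.46 ± 0.12, adjusted p = 4.6e-07). Mrps18a, a paralogue of the small subunit protein that sits in the large subunit in mammals, went from 67.9, 86.8 and 58.9 to 30.2, 28.6 and 27.7 (−1.31 ± 0.14, adjusted p = 3.5e-06). Mrps6, with a bacterial homologue in the small subunit, went from 40.1, 39.5 and 33.04 to 19.05, 16.1 and 15.3 (−1.16 ± 0.14, adjusted p = 1.3e-05), and mrpl34 from 30.9, 34.6 and 31.45 to 16.9, 14.2 and 14.3 (−1.09 ± 0.14, adjusted p = 2.2e-05). The D30 and D120 libraries did not overlap in any of these 4 genes. Mrps18a overlaps rsph9, a radial spoke gene of cilia, by 55 bp, and the mean of rsph9 moved the opposite way in this interval, from 39.8 to 230 scaled FPKM. From D10 to D30 in the testis both means rose, that of rsph9 from 1.17 to 39.8 and that of mrps18a from 23.25 to 71.2. At D30 rsph9 was also lower in ovaries, at 1.09. Its part in the mrps18a counts was not tested.

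The change of the ovary-testis difference from D30 to D120 was tested directly over 18 libraries. The shorter reads of the D30 testes enter this change too, and their part in it was not tested. It was called larger at D120 for 27 members (36%) and smaller for 5 (6.67%), where 21.9% and 18.1% of all genes were called. The median was 0.75 for the members and 0.18 for all genes. With library totals 53 were larger and 1 smaller, where 32.3% and 10.2% of all genes were, with medians of 1.34 and 0.76. The largest growth was that of mrpl41 (2.25 ± 0.18, adjusted p = 1.6e-09), which stood at 58.35 to 89.2 in D30 ovaries and 100.4 to 128 in D120 ovaries. Mrps6 (1.98 ± 0.26, adjusted p = 2.5e-06), mrpl14 (1.94 ± 0.23, adjusted p = 6.1e-07), a homologue of a bacterial protein of the subunit interface, and mrps18a (1.89 ± 0.17, adjusted p = 1.4e-08) came next. Mrpl14 had levels of 37.8, 48.3 and 41.5 in WT_Fe_Ov, 41.3, 59.4 and 39.7 in MT_Fe_Ov and 44.3, 65.04 and 38.96 in WT_Ma_Te at D30, where the tissues overlapped, and of 76.8 to 105.5 in the ovaries and 26.9, 26.1 and 25.96 in the testes of D120. The largest shifts toward the testis were those of mrps34 (−1.87 ± 0.20, adjusted p = 1.6e-07), mrpl52 (−1.40 ± 0.30, adjusted p = 0.00063), mrpl2 (−1.27 ± 0.17, adjusted p = 3.7e-06) and mrps26 (−1.22 ± 0.16, adjusted p = 3e-06). With library totals mrps34 alone stayed below −1, at −1.29, and mrpl52, mrpl2 and mrps26 were at −0.82, −0.68 and −0.63.

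In ovaries, more members were called between D10 and D30 than between D30 and D120. Of the 75, 41 (54.7%) were called higher in Fe_Ov at D30 than at D10 and 0 lower, against 26.7% and 41.4% of all genes. DESeq2 called 40 higher and 1 lower, where 24.4% and 41.2% of all its genes were. In edgeR 6 negative changes had an unadjusted p under 0.05, a count made for the members only. The median was 1.13, and that of all genes −0.59. With library totals 30 were higher and 2 lower, where 23% and 44.5% of all genes were, with medians of 0.87 and −0.86. Mrpl44 led, rising from a range of 19.5 to 24.5 over the D10 ovaries to one of 132 to 194.5 over the D30 ovaries (2.67 ± 0.12, adjusted p = 7.3e-12). Mrpl42, which exists only in mitochondria, rose from a range of 10.4 to 16.5 to one of 67.3 to 113 (2.56 ± 0.15, adjusted p = 1.8e-10). The ovaries of both stages were far apart for both genes. Mrpl19 lay at 14.6 to 16.6 in the D10 ovaries and at 82.9 to 126 in the D30 ovaries (2.56 ± 0.13, adjusted p = 2.4e-11). Mrpl47, a homologue of a bacterial protein at the exit of the peptide tunnel, lay at 8.74 to 14.4 and 50.3 to 76.4 (2.41 ± 0.14, adjusted p = 1.8e-10). Neither of these had overlapping stages. The D10 libraries hold tissue beside the gonad and hardly any oocyte marker RNA, so a change within ovary cells and a change of tissue cannot be told apart in this step.

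From D30 to D120, 8 members (10.7%) were called higher in Fe_Ov and 0 lower, where 12.7% of all genes were called higher and 10.1% lower, so the called share was near that of all genes. Most members nevertheless moved up by less than the fold minimum, with a median of 0.51 against 0.04 over all genes, and 54 had an adjusted p of at most 0.05 and a positive change against 1 with a negative one, where 22.6% and 22.2% of all genes did. DESeq2 called 9 higher and 0 lower, where 14.4% and 10.4% of all its genes were. Library totals gave 21 higher and 0 lower, where 16.1% and 6.98% of all genes were called, with medians of 0.72 and 0.24. The largest change was that of mrpl58, with 9.615 to 15.4 in D30 ovaries and 34.1 to 46.7 in D120 ovaries (1.50 ± 0.13, adjusted p = 2.5e-07). Mrpl52 (1.23 ± 0.21, adjusted p = 0.00014), mrps33 (1.21 ± 0.14, adjusted p = 2.8e-06) and mrpl36 (1.15 ± 0.19, adjusted p = 0.00011) followed. In mrpl52 the D30 ovaries were spread from 38.7 to 125, and the D120 ovaries lay at 147 to 194. With MT_Fe_Ov alone as the ovary, mrpl52 and mrps33 were at 0.85 and 0.95 and no longer called.

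In testes, 20 members (26.7%) were called higher at D30 than at D10 and 2 (2.67%) lower, against 23% and 23.7% of all genes, with medians of 0.67 and 0.12. Library totals gave 43 higher and 1 lower, where 30.3% and 19% of all genes were called, with medians of 1.11 and 0.53. The 4 largest rises were all in small subunit genes. Mrps17, with a bacterial homologue, went from 14.2, 19.85 and 8.72 to 62.9, 78.02 and 58.9 (2.20 ± 0.32, adjusted p = 0.00074). Mrps34 went from 11.4, 18.4 and 9.96 to 61.5, 65.1 and 55.6 (2.17 ± 0.28, adjusted p = 0.00038). In both genes the lowest D30 testis was far above the highest D10 testis. Mrps21 went from 12.1, 8.64 and 7.48 to 34, 48.4 and 33.1 (2.00 ± 0.28, adjusted p = 0.00062) and mrps14, likewise with a bacterial homologue, from 10.5, 14.2 and 11.6 to 40.55, 56.3 and 43.4 (1.93 ± 0.27, adjusted p = 0.00064). Mrpl1, the protein of the mobile stalk at the tRNA exit side, fell from 57.6, 106 and 74.96 to 26.4, 27.5 and 27.3 (−1.58 ± 0.26, adjusted p = 0.00142), and the D30 testes were nearly equal. Mrpl24 fell from 44.2, 54.03 and 25.5 to 20.2, 19.5 and 22.2 (−1.02 ± 0.29, adjusted p = 0.0166). The mrpl24 call was lost in all fits that left out 1 library except the one without D10 testis replicate 3. Without D10 testis replicate 2, 31 members were called in this step. The D10 testes held other tissue, with a summed liver level of 48.0 to 420 scaled FPKM against 0.544 to 1.005 in the D30 testes. The D30 testes also had shorter reads. A change within the testis, a change of tissue and the length of the reads cannot be told apart here.

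The following members are given for their known roles. Mrpl10 and mrpl12 form the stalk that recruits elongation factors. At D120 mrpl12 was at 191, 160.5 and 177 in WT_Fe_Ov, 157, 188 and 160.3 in MT_Fe_Ov and 33.8, 33.2 and 34.9 in WT_Ma_Te in scaled FPKM, and the ovaries exceeded the testes by 2.34 ± 0.09, adjusted p = 5.8e-11. Mrpl10 had 51.8 to 62.5 in D120 ovaries and 15.6, 11.5 and 13.5 in D120 testes (2.12 ± 0.12, adjusted p = 1.5e-09), and at D30 32.6 to 52.1 and 23.1, 23.3 and 20.55 (1.01 ± 0.15, adjusted p = 6.5e-05). In both stalk genes every ovary exceeded every testis at both stages on this scale. In deposited FPKM the D30 tissues overlapped in both, as for mrpl10 with 24.1 to 41.2 in ovaries and 30.7 to 34.7 in testes. Mrps12, of the decoding site, reached 126 to 199.6 in D30 ovaries against 52.55, 58.55 and 46.5 in the testes (1.72 ± 0.15, adjusted p = 6e-07), and 2.35 on the log2 scale at D120. With library totals neither mrpl10 nor mrps12 was among the members called higher at D30. Mrpl37, a mitochondria-specific protein, and mrpl30, with a bacterial homologue, were higher in D120 ovaries by 2.47 ± 0.09, adjusted p = 2.5e-11 and 2.21 ± 0.12, adjusted p = 8.6e-10. Mrps30, which lies in the large subunit in mammals, was among the lowest members, at 38.99 to 47.1 in ovaries and 14.4, 15.8 and 10.5 in testes of D120 (1.69 ± 0.13, adjusted p = 3.5e-08). Mrpl58 was at 34.1 to 46.7 and 17.25, 12.9 and 16.1 (1.30 ± 0.14, adjusted p = 1.2e-06).

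The mrps18 paralogues, which share a single bacterial homologue, are given side by side. Mrps18b was higher in the ovary at both later stages, with 1.42 ± 0.13, adjusted p = 6.1e-07 at D30 on TMM scaling and 1.53 ± 0.09, adjusted p = 3.9e-09 at D120. Mrps18a was at 52.8, 56 and 57.5 in WT_Fe_Ov, 58.8, 64.2 and 53.35 in MT_Fe_Ov and 67.9, 86.8 and 58.9 in WT_Ma_Te at D30, where the testes reached the level of the ovaries or passed it (−0.29 ± 0.13, adjusted p = 0.0659). Mrps18c had ovaries at 47.9 to 69.9 and testes at 87.35, 93.4 and 69.4 at D30 (−0.42 ± 0.15, adjusted p = 0.0197). At D120 both were called higher in the ovary, mrps18a by 1.54 ± 0.11, adjusted p = 2e-08 and mrps18c by 1.07 ± 0.11, adjusted p = 6.8e-07. Mrps36 was at 37.1, 30.45 and 36.5 in WT_Fe_Ov, 31.1, 38.75 and 21.2 in MT_Fe_Ov and 42.4, 57.1 and 39.02 in WT_Ma_Te at D30 and at 45.8 to 70.7 in the ovaries and 26.7, 31.6 and 32.5 in the testes of D120. Its log2 fold changes were −0.48 ± 0.19, adjusted p = 0.0348 at D30 and 0.96 ± 0.15, adjusted p = 4.5e-05 at D120, neither past the fold minimum. With library totals mrps18a, mrps18c and mrps36 were called lower in the D30 ovary, at −1.26, −1.39 and −1.44, and mrps18b was not among the called members.

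**Figure D5:**
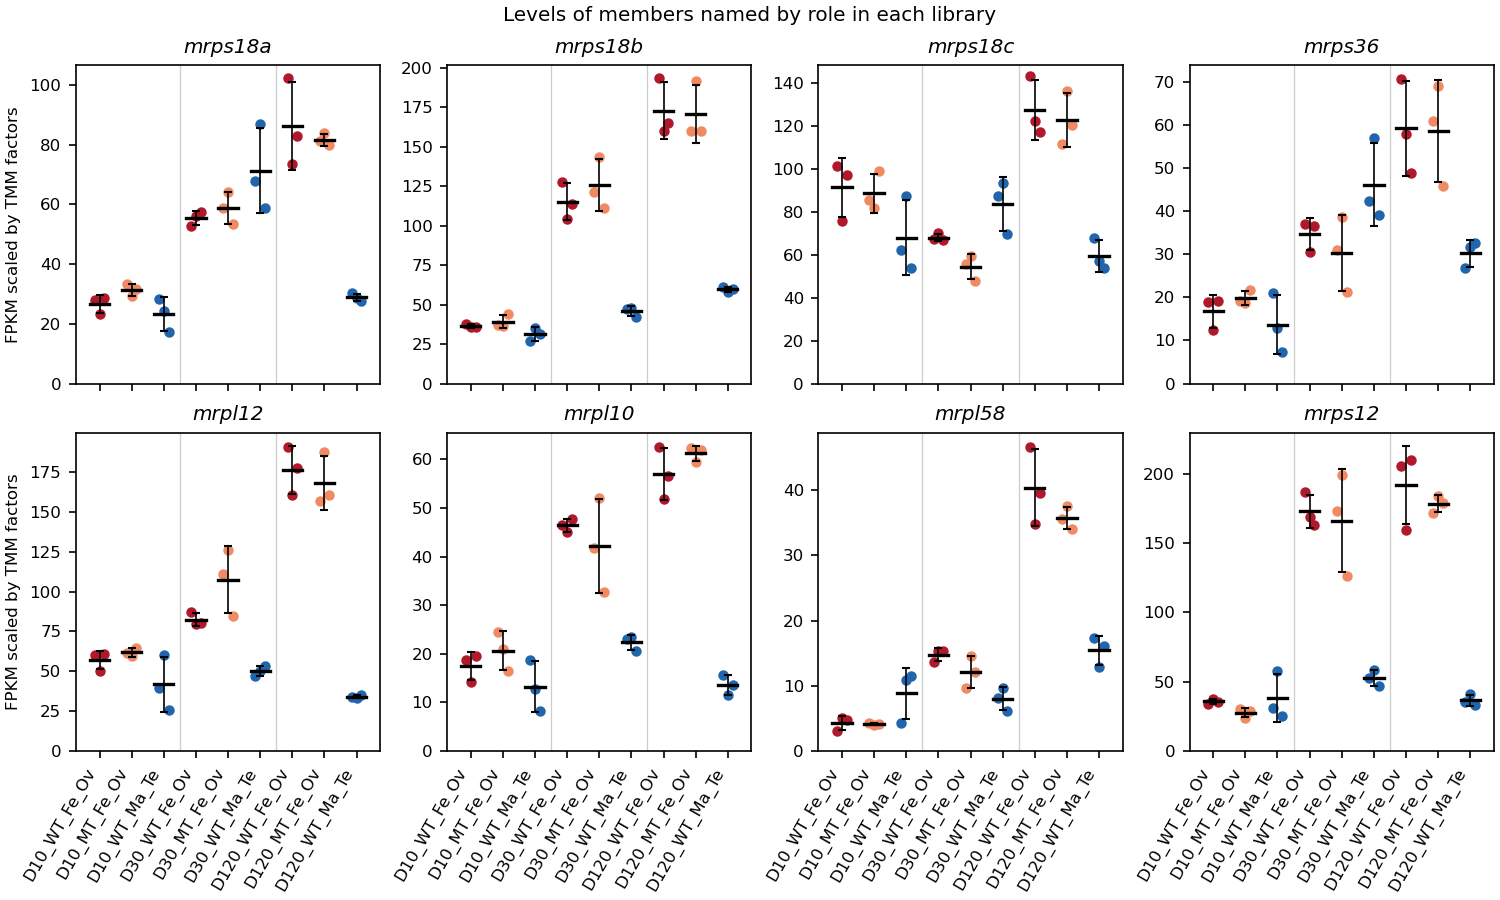
Scaled FPKM (y axis) of the mrps18 paralogues, mrps36, the stalk genes mrpl12 and mrpl10, mrpl58 and mrps12 in each library, by group (x axis). Points are libraries, bars the mean and SD of 3 libraries. Mrps18a, mrps18c and mrps36 reach or pass the ovary level in the D30 testis on this scale and fall below it at D120.

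Between the ovaries of both genotypes, 0 members were called at any stage with edgeR and 0 with DESeq2, where edgeR called 0.374% of all genes at D10, 1.68% at D30 and 0.104% at D120. Unadjusted p-values under 0.05 were found for 5, 23 and 3 members, and the share of all genes under that limit was not counted. The medians of the members were −0.01, −0.05 and 0.01, or 0.07, 0.01 and 0.02 with library totals. At D30 mrpl27 alone passed the adjusted p without the fold minimum. It was at 158, 143 and 153.5 in WT_Fe_Ov and 236, 304 and 235 in MT_Fe_Ov, every mutant ovary above every wild type ovary, and the log2 fold change of WT_Fe_Ov against MT_Fe_Ov was −0.77 ± 0.13, adjusted p = 0.0256. Mrpl21, singled out after its values were seen, had 46.6, 44.4 and 48.9 in WT_Fe_Ov and 78.5, 111 and 65.5 in MT_Fe_Ov (−0.86 ± 0.19, adjusted p = 0.0563). It was called at −1.02 without D30 MT_Fe_Ov replicate 3, the only such call in the fits that left out 1 library. The mutant libraries of D30 differed more among themselves than the wild type ones, with a median coefficient of variation of 19.1% against 5.57%. The pancreas gene cpb1 was at 97.7 to 164 in D30 WT_Fe_Ov, at 0.36 to 3.14 in MT_Fe_Ov and at 233 to 280 in the testes, and its part in these values was not tested. A difference that misses the thresholds does not show that the genotypes are alike.

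Genes that serve the mitochondrial ribosome without carrying its symbols were counted in the same way. Of all genes tested, 22% were called higher in the ovary at D30 and 36.5% lower on TMM scaling. At D120 these shares were 23.8% and 32%. A first list of 6 genes held further ribosomal proteins (dap3, chchd1, aurkaip1, ptcd3 and gadd45gip1) and malsu1, an assembly factor. Of these 6, 3 were called higher in the D30 ovary on TMM scaling and 4 in the D120 ovary, led at D120 by aurkaip1 (2.50 ± 0.10, adjusted p = 5.9e-11). Of 10 translation factors found among 12 listed, 6 were called higher at each stage. At D120 the initiation factor mtif3 was at 3.18 ± 0.15, adjusted p = 3.2e-10, the release factor mtrf1 at 3.01 ± 0.15, adjusted p = 5.3e-10 and the elongation factor tsfm at 2.82 ± 0.10, adjusted p = 2.3e-11. The recycling factor mrrf was called lower in the D120 ovary, at −1.23 ± 0.10, adjusted p = 1.3e-07. Of 20 assembly factors found among 24 listed, 13 were called higher at D30 and 15 at D120. At D120 the GTPase noa1 was at 2.96 ± 0.10, adjusted p = 9.3e-12 and the RNA methyltransferase mrm3 at 2.88 ± 0.33, adjusted p = 2.9e-06. In mrm3, D120 WT_Fe_Ov replicate 3 stood at 69.1 scaled FPKM, against 26.1 to 30.7 in the other D120 ovaries. The assembly factor fastkd2 turned from 1.25 at D30 to −1.15 at D120. Among 18 of 20 listed mitochondrial aminoacyl-tRNA synthetases and their partners, 10 were higher at D30 and 8 at D120. At D120 sars2 was at 3.58 ± 0.40, adjusted p = 2.3e-06 and rars2 at 2.89 ± 0.09, adjusted p = 3.4e-12. The D120 ovaries differed in sars2, with 64.9, 28.5 and 30.9 scaled FPKM in WT_Fe_Ov and 83.7, 89.95 and 77.7 in MT_Fe_Ov. The D120 testes were at 4.68 to 6.02. Of 12 genes of mitochondrial transcription and DNA maintenance, 6 and 7 were higher, but tfam, which packages mitochondrial DNA, was at 0.02 ± 0.14, adjusted p = 0.882 at D30 and −0.49 ± 0.11, adjusted p = 0.00115 at D120. With library totals, the counts of genes higher at D30 were 1 of the first list, 2 of the translation factors, 6 of the assembly factors, 3 of the synthetases and 1 of the last list, and 1, 1, 2, 2 and 2 genes of these lists were lower. Of all genes tested, 9.87% were called higher and 52.1% lower on that scale. At D120 the lists kept positive medians on both scalings.

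The families on either side of these genes, the proteins of cytosolic ribosomes and those of the respiratory chain, are set beside them here. From D10 to D30 in the ovary, when 41 of 75 members were called higher, 63 of 67 cytosolic ribosomal protein genes were called lower and 1 higher (median −1.49), against 41.4% and 26.7% of all genes. Of 61 oxidative phosphorylation genes, 20 were called lower and 5 higher (median −0.73), both below the shares of all genes. With library totals the counts of lower genes were 66 and 31, and 44.5% of all genes were lower. The same step in the testis had 41 cytosolic genes lower (median −1.13), or 20 with library totals, where 23.7% and 19% of all genes were. For ovary against testis at D30 the medians were −0.28 and −0.15 for cytosolic and respiratory genes against 0.91 for the members, and with library totals −1.25 and −1.12 against −0.06. At D120 they were 0.71 and 0.86 against 1.55. Of 67 cytosolic genes 10 were called higher and of 61 respiratory genes 25, where 23.8% of all genes were. From D30 to D120 in the ovary, the median of the respiratory genes was 0.69, beside 0.51 for the members. Of the 61 respiratory genes 20 were called higher, where 12.7% of all genes were. Many cytosolic ribosomal protein genes have near-identical copies, and reads with several alignments were not counted, so their levels are uncertain.

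All 75 members were matched by symbol to the RefSeq annotation of ASM223467v1, where they lie on 24 chromosomes, with at most 7 on one (chromosome 11). The annotation table gives gene spans without exons or strand. Of the members, 60 overlap no other annotated gene and 15 do, among them mrpl2, mrpl4, mrpl22, mrpl47, mrps18a and mrps18b. Mrpl4 shares 298 bp with hyls1, which went from 26.6 to 134 scaled FPKM in the testis between D30 and D120, while mrpl4 went from 24.8, 28.6 and 26.96 to 14.2, 13.55 and 12.2. Mrpl22 shares 352 bp with gemin5, at 4.93 and 4.08 in the testes of D30 and D120, while mrpl22 went from 52.8, 51.96 and 43.4 to 133, 128 and 124 (1.38 ± 0.10, adjusted p = 8.7e-08). Between the tissues at D30 both genes were higher in the ovary. There gemin5 had means of 33.5 in ovaries and 4.93 in testes, and mrpl22 of 146 and 49.4. In the pairs that follow, the partner moved the same way as the member in the comparison given. Mrpl1 shares 578 bp with cnot6l, at 26.75 in D10 testes and 9.19 in D30 testes. Mrpl47 shares 356 bp with actl6a, at 19.1 in D10 ovaries and 68.03 in D30 ovaries. Mrps18b shares 18 bp with abcf1, which was at 108 in the D30 ovaries and 26.8 in the D30 testes. The part of these partners in the members' counts was not tested. For overlapping genes, reads of the shared stretch cannot be told apart without strand.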

How the data were processed

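Per the study's methods, reads of poly(A) libraries were trimmed (fastp), mapped to ASM223467v1 (STAR) and assigned to exons by featureCounts as pairs, ignoring strand and reads with several alignments. The counts deposited by the authors are these unnormalized numbers for 26099 genes. The authors derived the deposited FPKM with DESeq2, and on testing these were found to use library totals.

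Groups and replicate numbers were taken from the labels. Each of the 10 comparisons was fitted in edgeR 4.0.16 (R 4.3.3, limma 3.58.1) on the libraries compared, for genes with at least 1 count among them, using TMM factors, quasi-likelihood F tests and p-values adjusted by Benjamini-Hochberg over all genes tested. The change of the ovary-testis difference used 18 libraries. The SE was obtained from the log2 fold change and the F statistic. Levels are deposited FPKM divided by TMM factors over all 27 libraries. P-values measure the spread between these libraries, which are described as biological replicates. Alternatives were DESeq2 1.42.0, other scalings, filters and thresholds, single ovary genotypes, 1 fit of all libraries, the replicate number as a block and leaving out each library. Equal replicate numbers were not treated as pairs, since no comparison had all correlations of same-numbered deviations over 0.1 (range −0.12 to 0.22). For the genotypes at D30, 2 of 3 correlations were over 0.1. With so few libraries per group, this check cannot exclude pairing. The edgeR test was first tried on simulated data for ovary against testis at D10 and D120 and for the genotypes at D30. The other comparisons, the change of the ovary-testis difference and DESeq2 were not simulated.

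The members and the gene lists were chosen with earlier results of these data known. Named members are those with the 4 largest changes per direction and comparison among called members whose groups did not overlap, the 4 highest and 4 lowest by mean FPKM, those of known role and those called against the majority. Sequences were not used here. Python 3.11.15 with pandas 2.3.3 and matplotlib 3.10.9 made the plots.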

Additional observations from a re-analysis of the deposited data

Results flagged for a closer look

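In 114 sets of 6 ovary values examined for the members named above, their sum and the subunit ratio, 10 had a library whose gap to the others passed Dixon's 95% limit, and chance gives about 1 in 20 such sets. At D10, WT_Fe_Ov replicate 2 was low in mrpl24 (51.0 scaled FPKM, others 56.2 to 59.0), mrpl12 (50.2, others 59.3 to 64.6) and mrps36 (12.4, others 18.8 to 21.8). WT_Fe_Ov replicate 3 was high in mrpl19 (16.6, others 14.6 to 15.3), and MT_Fe_Ov replicate 3 in mrps18b (43.8, others 35.7 to 37.8). At D30, MT_Fe_Ov replicate 2 was high in mrpl41 (89.2, others 58.4 to 66.7) and mrpl20 (281, others 181 to 211), and MT_Fe_Ov replicate 3 was low in mrps21 (34.7, others 50.0 to 54.9). At D120, WT_Fe_Ov replicate 2 was high in mrpl19 (103, others 80.5 to 87.9) and WT_Fe_Ov replicate 1 in mrps18a (102, others 73.4 to 83.9).

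The ovary-testis difference changed between D30 and D120 for 32 members (42.7%) in edgeR's test of the change itself. Of all genes tested, 40.1% were called, so the share of the members in both directions together was near that of all genes. On the log2 scale the change was 2.25 for mrpl41, 1.98 for mrps6, 1.94 for mrpl14 and 1.89 for mrps18a. It was −1.87 for mrps34, −1.40 for mrpl52, −1.27 for mrpl2 and −1.22 for mrps26, of which mrps34 alone was called with library totals.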

How the results depend on the processing

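Both the scaling and the fold minimum moved the counts. Scaling by library totals turned the median log2 fold change of the members to −0.0608 for ovary against testis at D30, to 0.0715 for WT_Fe_Ov against MT_Fe_Ov at D10 and to 0.0095 at D30. Under it, 16 members were called for ovary against testis at D30, 21 for Fe_Ov and 28 for Ma_Te from D30 to D120, 44 for Ma_Te from D10 to D30, and 54 for the change of the ovary-testis difference. Of all genes tested, 62.0%, 23.1%, 41.5%, 49.3% and 42.5% were called, in the same order. The members' median less that of all genes moved little (1.44 and 1.43 at D30). Without a fold minimum the counts were 58 for ovary against testis at D30, 1 for the genotypes at D30, 66 and 55 for the steps of Fe_Ov, 36 and 57 for those of Ma_Te, and 52 for the change of the difference, where 71.4%, 3.05%, 80.0%, 44.8%, 51.7%, 61.5% and 50.5% of all genes passed. With a fold minimum of 2 on the log2 scale they were 4 at D30, 22 at D120, 15 and 0 in Fe_Ov, 3 and 2 in Ma_Te, and 1 for the change of the difference. Of all genes tested, 37.3%, 34.6%, 48.2%, 8.08%, 30.0%, 17.5% and 22.1% passed, in the same order. At D10, DESeq2 and 1 fit of all 27 libraries each called 1 member for ovary against testis, where 6.90% and 6.45% of all genes were called. Leaving out 1 library gave 0 to 2 members at D10 (2 without WT_Ma_Te replicate 1), 32 to 35 at D30 and 53 to 57 at D120. For the genotypes at D30 it gave 0 to 1. For the steps it gave 40 to 42 and 6 to 10 in Fe_Ov and 18 to 31 (31 without D10 replicate 2) and 12 to 14 in Ma_Te, and 31 to 33 for the change of the difference. With the replicate number as a block, 0, 34 and 53 members were called for ovary against testis at D10, D30 and D120, 41 and 9 for Fe_Ov, 22 and 13 for Ma_Te, 32 for the change of the difference and 0 for the genotypes at each stage, so the block moved no count by more than 1.5 times. For ovary against testis, 0.234%, 57.2% and 54.5% of all genes were called with the block. For the steps and the change of the difference these shares were 67.2%, 21.8%, 44.1%, 37.8% and 39.4%. For the genotypes they were 0.0163%, 2.06% and 0.464%. Of 39 single-gene results, 33 kept direction and call in every refit, and 0 of 689 refits reversed one. These 39 were picked from the same data as the largest changes among called members whose groups did not overlap. Their stability therefore cannot be read for the other members. The lost calls were 12, in mrpl24, mrpl52, mrps33, mrps26 and mrpl2. The causes were not tested. Each group had 3 libraries, the D10 libraries held other tissue, and the reads of the D30 testes had another length than those of all other libraries. A floor of 3 counts was 0.540 CPM where the depth was lowest, and the lowest count of any member in any library was 37.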
